A study of Mus musculus with 4 samples.

Results

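The 34 genes described here encode the nutrient-sensing machinery that recruits and switches on mTORC1, the growth-promoting kinase complex, at the surface of the lysosome. They are the subunits of the Rag GTPases, Ragulator, GATOR1, GATOR2, the folliculin complex and the TSC complex, the GTPase Rheb, 2 arginine sensors, the mTOR complexes with 2 of their inhibitors, and the S6 kinases. Members were taken by name: an array probe counted when its transcript accession belongs to 1 of these symbols in RefSeq, which gave 54 probes among the 56605 non-control probes of the array. All 34 had a probe, out of 23771 genes with one. In 32 of them a probe was bright enough to test, among 13539 genes tested.

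The cells are S-180, a transplantable mouse sarcoma line, grown in medium with 10% serum and kept for 12 h with 20 µM fluoxetine (2 samples) or without it (2 samples). Fluoxetine is a selective serotonin reuptake inhibitor, and as a lipophilic weak base it is also known to collect in lysosomes. RNA of each sample was put on 1 single-colour Agilent array, named below fluoxetine 1, fluoxetine 2, control 1 and control 2. The labels call the samples biological replicates but do not say whether the cultures were separate, so each p reflects only how far these samples spread. The 2 arrays of a group were neighbours on 1 slide, and position and treatment cannot be told apart. The question asked by the design is which transcripts differ in amount after the drug.

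On every array 51.7% to 53.5% of the non-control spots cleared the background mark, and 0 spots were saturated. The fluoxetine arrays correlated at 0.995 (Pearson's r over 25833 bright probes, which are not independent), the control arrays at 0.993, and arrays of unlike groups at 0.976 to 0.983. Of 15 sarcoma or mesenchymal markers, 10 were well above background on both fluoxetine arrays and 11 on both control arrays, with Vim, Lgals1, Anxa2 and S100a6 among them and Col3a1, Thy1, Pdgfrb and Fap at background on all arrays. Their summed signal was 393600 to 454200 with fluoxetine and 399600 to 412400 in control, in the scaled units defined below, most of it from S100a6 and Anxa2. Of the 11 tested, 0 rose and 2 fell (18.2%), beside 16.8% and 10.1% of all tested genes (adjusted p under 0.05 in limma). The 2 were Sparc, by 0.62 (adjusted p = 0.0162 in limma), and Col1a2 (adjusted p = 0.0119). Col1a2 was not well above background with fluoxetine and was at least 2.38-fold lower there. Of 15 leukocyte markers 5 and 6 were above background on both fluoxetine and both control arrays, and their summed signal was 6321 to 6457 with fluoxetine against 8223 to 8571 in control. The brightest was Cd14, at 4923 and 4660 with fluoxetine against 5035 and 5443 in control, which was not called. Cd4 and Csf1r were also above background on all arrays. Ptprc, the gene of the common leukocyte antigen CD45, was among 8 at background on all arrays. Of the 6 tested leukocyte markers, Itgam fell by 1.96 (506 and 519 with fluoxetine against 2011 and 1973 in control, adjusted p = 0.00636 in limma) and Cd3e rose by 0.52 (adjusted p = 0.0313), each with another kept probe of the opposite sign. Only 1 of 5 endothelial markers was above background in either group (summed signal 118 to 141 with fluoxetine, 106 to 123 in control). Of 6 epithelial markers 5 were above background with fluoxetine and 4 in control (summed signal 78930 to 80950 against 90910 to 96450). The brightest were Krt8 (46489 and 46018 against 52079 and 53958) and Krt18 (28494 and 26945 against 33331 and 36637), neither of them called. Cdh1 was at background on all arrays. The part of these marker levels in the results below was not tested.

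In mammalian cells mTORC1 is recruited to the lysosome by a Rag heterodimer, RagA or RagB paired with RagC or RagD, which sits on the Ragulator scaffold. Amino acids act through GATOR2, which holds back GATOR1, the complex that shuts RagA and RagB off. Once on the lysosome, mTORC1 is activated by Rheb, and the TSC complex turns Rheb off when growth factors or energy run short. The folliculin complex is a GTPase-activating partner of RagC and RagD. It is set with GATOR1 and TSC as a restrainer here because of the way the genes were grouped, although its action on RagC also helps mTORC1 reach the lysosome.

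On the brightest probe of each gene, transcripts of the restrainers were higher with fluoxetine almost throughout, while those of the activators went both ways. The core of mTORC1 itself showed changes near 0. Of the 32 tested members, 15 rose (46.9%), 3 fell (9.38%) and 14 did not pass, beside 26.9% of all tested genes called in either direction, 16.8% higher and 10.1% lower. All 9 restrainers were tested, of which 8 rose and 0 fell. Among the 12 tested activators, 4 rose and 1 fell. The median log2 change was 0.52 over the restrainers and 0.21 over the activators, against 0.06 over all genes tested. The difference between these 2 sides was not tested. With all kept probes of a gene averaged, 5 restrainers and 3 activators rose. Depdc5 and Tbc1d7 among the restrainers and Lamtor3 among the activators had a kept probe of the opposite sign. In bulk RNA, fewer cells that hold a transcript and less of it per cell cannot be told apart.

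Rose and fell stand for an adjusted p under 0.05 in limma (Benjamini-Hochberg over all 13539 genes), and changes are log2 values of fluoxetine minus control. Errors after ± are their limma standard error, with n = 2 arrays per group. In it the variance of each gene or probe is drawn toward that of all genes or probes fitted, so it is not the spread of that gene's arrays alone. An exact permutation test of 1 gene, 2 arrays against 2, could not go below p = 0.333. At an adjusted p under 0.1, which 41.3% of all genes passed, 16 members were higher and 3 lower. The number of calls depended on single arrays. Without fluoxetine 1 or without fluoxetine 2, limma called 0 of the 13539 genes (4070 and 4537 at an unadjusted p under 0.05) and 0 members (18 and 17). Without control 1 it called 989 genes, with 5 members higher and 0 lower, and without control 2 it called 2666 genes, with 10 members higher and 1 lower. These fits assume that the lone array of a group varies like the other group. With each array left out in turn, all 72 values of the 18 called members kept their sign. This had to be so, because in each of them both arrays of 1 group lay above both of the other. It therefore says nothing about how stable the calls are.

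**Figure D1:**
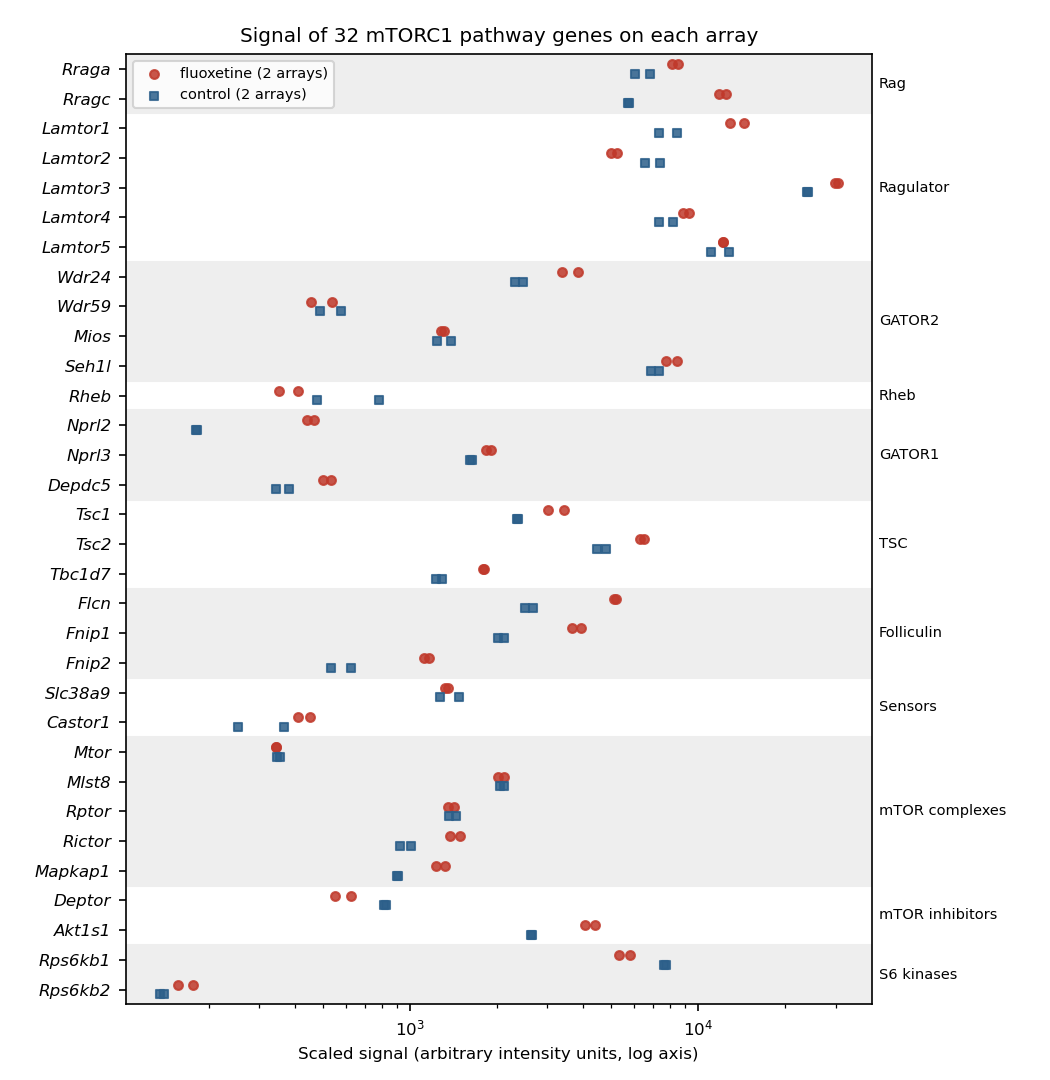
Scaled signal of the 32 tested genes on each array (log axis, arbitrary intensity units), with red circles for the 2 fluoxetine arrays and blue squares for the 2 control arrays, grouped by complex. All 9 restrainers lie higher on both fluoxetine arrays than on both control arrays. Lamtor2, Rheb, Deptor, Rps6kb1 and, by less than 1 scaled unit, Mtor lie lower. Of all tested genes, 72.5% had both arrays of 1 group above both of the other.

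Signals are given as scaled signal, the background-corrected spot intensity brought to the same 75th percentile (408) on every array. A probe has its own brightness, so scaled signals are compared between arrays and not between genes. In 26 of the 32 tested members both arrays of 1 group lay above both of the other, which was so for 72.5% of all tested genes.

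Among the Rag GTPases, Rragc, which encodes the RagC subunit, rose the most of the activators. Its scaled signal was 12538 and 11849 on the fluoxetine arrays and 5754 and 5711 on the control arrays. Both fluoxetine values were far above both control values. The change was 1.09 ± 0.08 (adjusted p = 0.00992), 2.13-fold, and 338 of all tested genes had a larger rise. A second probe of Rragc also rose, by 0.61 ± 0.09 (adjusted p = 0.0234 over all probes), with 628 and 584 against 390 and 403. Leaving out each array in turn gave changes of 1.05 to 1.13 for the brighter probe.

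Rraga, the RagA subunit, had 8532 and 8111 with fluoxetine against 6039 and 6797 in control. Both fluoxetine arrays were higher, but the change of 0.38 ± 0.10 did not pass (adjusted p = 0.0573). It was called with the filter that kept only probes well above background on all arrays, and with a trended, robust variance. Rragb, which encodes the close relative RagB, was not well above background on any array, with scaled signals between 4.06 and 5.38 over the 4 arrays. The same held for both probes of Rragd, the RagD subunit, at 4.23 to 6.46. No fold is given for these 2 genes, and of the 4 Rag genes Rraga and Rragc were thus the measured pair.

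All 5 subunits of Ragulator, the pentameric scaffold that ties the Rags to the lysosomal membrane, were measured, and they did not move together. Lamtor1, the lipid-anchored subunit that wraps around the others, rose by 0.79 ± 0.12 (adjusted p = 0.0209). Its scaled signal was 14457 and 12866 with fluoxetine against 7336 and 8426 in control, so that the lowest fluoxetine array lay well above the highest control array. Lamtor2, which with Lamtor3 forms a roadblock-fold dimer in the scaffold, fell by 0.45 ± 0.10 (adjusted p = 0.0418), with 5224 and 4974 against 7403 and 6535. On the separate test over all probes it did not pass (adjusted p = 0.0518).

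Lamtor3, the partner of Lamtor2, was higher, at 30488 and 29782 with fluoxetine against 23810 and 23994 in control, and rose by 0.33 ± 0.07 (adjusted p = 0.0409). Its second, much dimmer probe went the other way (−0.07 ± 0.08), and with both probes averaged the change was 0.13 and did not pass (adjusted p = 0.22). Lamtor4 (0.23 ± 0.09, adjusted p = 0.139) and Lamtor5 (0.04 ± 0.10, adjusted p = 0.809) completed the scaffold without passing. Lamtor4 had 9297 and 8874 against 7339 and 8173, apart but close. For Lamtor5 both fluoxetine arrays (12192 and 12222) lay between the control arrays (11090 and 12792), and the sign of its change depended on the scaling.

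In GATOR2, 1 of the 4 members passed. Wdr24, whose product carries a RING-type domain and is a core subunit of GATOR2, rose by 0.59 ± 0.10 (adjusted p = 0.0276), with 3841 and 3381 with fluoxetine against 2323 and 2474 in control. Wdr59 (−0.10 ± 0.14) and Mios (−0.02 ± 0.09) had overlapping groups. Seh1l, a subunit shared with the nuclear pore, was at 8438 and 7736 against 6838 and 7295, and its change of 0.19 ± 0.09 did not pass (adjusted p = 0.179). Its second probe gave a like value, 0.27 ± 0.08, which also did not pass.

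Rheb, the small GTPase that activates mTORC1 directly, had 408 and 352 with fluoxetine against 780 and 476 in control. Both fluoxetine arrays were lower, but the control arrays were far apart. The change of −0.68 ± 0.27 did not pass (adjusted p = 0.134). It was −1.04 and called without control 2 (adjusted p under 0.05 in that fit), and −0.33 without control 1, so control 1 decides its size.

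GATOR1 gave the largest change among the members. Nprl2, which encodes the subunit that carries the catalytic arginine of the complex, had 465 and 439 with fluoxetine against 182 and 180 in control. Replicate arrays differed by little in either group and the groups lay far apart. It rose by 1.32 ± 0.08 (adjusted p = 0.00934), 2.50-fold, and 191 of all tested genes rose more. The change was between 1.28 and 1.36 with each array left out in turn.

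The other GATOR1 subunits were less clear. Depdc5, the largest subunit, which contacts the Rags, rose by 0.52 ± 0.09 (adjusted p = 0.0298) on its brightest probe, with 532 and 500 with fluoxetine against 343 and 379 in control. A second, dimmer probe designed on another transcript of the gene went the opposite way: it had 50.6 and 48.5 against 69.9 and 69.9, and fell by 0.50 ± 0.08 (adjusted p = 0.028 over all probes). Averaged over both, the change was 0.01, so the direction for Depdc5 depends on which probe is read. Further Depdc5 probes on these same transcripts were not well above background on any array and were not kept. The probe sharing the transcript of the brightest was at 9.11 and 4.5 against 5.48 and 6.42. Nprl3, the partner of Nprl2, had 1914 and 1841 against 1622 and 1648 and did not pass (0.20 ± 0.07, adjusted p = 0.12). A second Nprl3 probe rose by 0.45 ± 0.10 (adjusted p = 0.0473 over all probes).

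The 3 genes of the folliculin complex rose by similar amounts. Flcn, the tumour suppressor gene mutated in Birt-Hogg-Dubé syndrome, had 5179 and 5106 with fluoxetine against 2516 and 2671 in control. It rose by 0.99 ± 0.08 (adjusted p = 0.011), and its second probe by 0.72 ± 0.12 (adjusted p = 0.0294 over all probes). Fnip1, which encodes a binding partner of folliculin, had 3933 and 3646 against 2025 and 2114. Its change was 0.87 ± 0.08 (adjusted p = 0.0129).

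Fnip2, the paralogous partner, had 1119 and 1162 with fluoxetine against 531 and 626 in control, and rose by 0.98 ± 0.11 (adjusted p = 0.0153). A second, very dim probe of Fnip2 was above background with fluoxetine alone and was at least 1.61-fold higher there (35.1 and 29.5 against 6.86 and 19.8, adjusted p = 0.13 over all probes). Averaged with it, Fnip2 did not pass (1.23, adjusted p = 0.0623). For these 3 genes every fluoxetine array was above every control array, and leaving out each array in turn gave changes from 0.82 to 1.10. Without control 1, limma called Flcn, Fnip1, Fnip2, Nprl2 and Rragc as the 5 members.

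All 3 subunits of the TSC complex, which turns off Rheb, rose by a smaller step. Tsc2, the catalytic subunit that acts on Rheb, had 6468 and 6274 with fluoxetine against 4463 and 4798 in control and rose by 0.46 ± 0.08 (adjusted p = 0.0288). Tsc1, which stabilises Tsc2, had 3434 and 3007 against 2346 and 2380 and rose by 0.44 ± 0.10 (adjusted p = 0.0425). In the test over all probes the same Tsc1 probe did not pass (adjusted p = 0.0526). A dim second Tsc1 probe, below the well-above-background mark in control, was at least 1.86-fold higher with fluoxetine (29.8 and 46.1 against 16.3 and 12.9, adjusted p = 0.0385 over all probes).

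Tbc1d7, the smallest subunit, had 1814 and 1786 with fluoxetine against 1228 and 1297 in control, and rose by 0.51 ± 0.08 (adjusted p = 0.0219). Its other probe was at 347 and 417 against 446 and 435 (−0.21 ± 0.12), and the mean of both probes, 0.15, did not pass (adjusted p = 0.229). The second Tsc2 probe had the same sign as the first (0.22 ± 0.10) without passing.

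**Figure D2:**
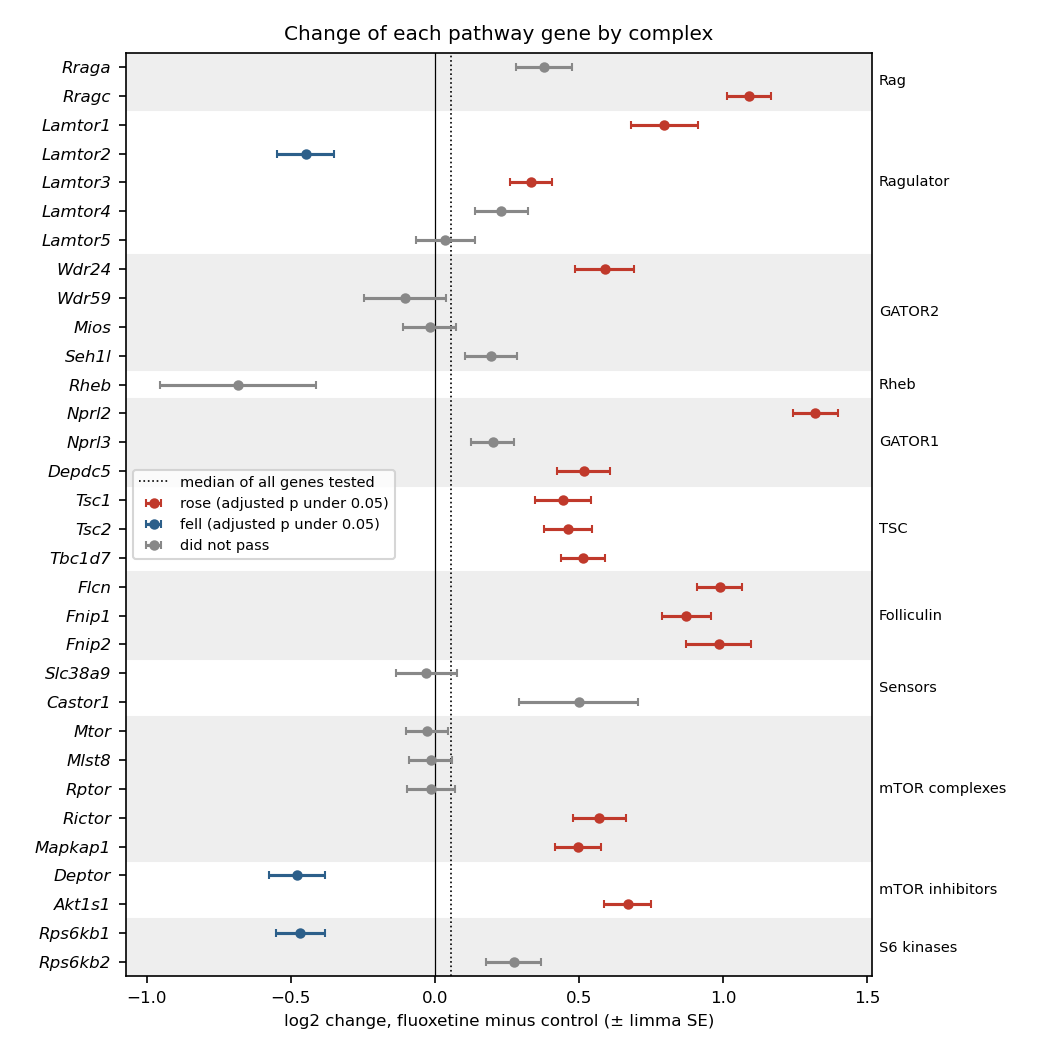
Log2 change of each tested gene, fluoxetine minus control, with the limma standard error (n = 2 arrays per group), grouped by complex. Red points rose, blue points fell and grey points did not pass, and the dotted line marks the median of all genes tested (0.06). The folliculin genes sit between 0.87 and 0.99, the TSC genes between 0.44 and 0.51, and Mtor, Mlst8 and Rptor between −0.03 and −0.01.

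Short promoter stretches are shown for the tested members whose RefSeq promoter window holds CACGTG. This E-box core is read by the basic helix-loop-helix factors TFEB, TFE3 and MITF and by others such as MYC and USF. TFEB and TFE3 are phosphorylated by mTORC1 at the lysosome and are known for driving lysosomal genes, with RagC, RagD and folliculin genes among their reported targets. The 150 bases before the annotated start are given 5′ to 3′ on the gene's strand (RefSeq, build GRCm38.p6), with CACGTG in capitals. The first 4 genes rose and the last 2 did not pass.
Rragc, chr4:123917283-123917432, plus strand: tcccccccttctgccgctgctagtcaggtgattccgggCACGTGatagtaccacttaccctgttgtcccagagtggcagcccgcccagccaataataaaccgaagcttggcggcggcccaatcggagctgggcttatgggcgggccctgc
Fnip1, chr11:54438029-54438178, plus strand: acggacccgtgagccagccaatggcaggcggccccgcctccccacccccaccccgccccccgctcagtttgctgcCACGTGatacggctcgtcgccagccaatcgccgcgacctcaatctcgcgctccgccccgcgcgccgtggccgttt
Lamtor1, chr7:101905687-101905836, plus strand: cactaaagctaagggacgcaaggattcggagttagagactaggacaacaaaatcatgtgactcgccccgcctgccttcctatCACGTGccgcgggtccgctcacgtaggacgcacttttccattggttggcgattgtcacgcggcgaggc
Tbc1d7, chr13:43171502-43171651, minus strand: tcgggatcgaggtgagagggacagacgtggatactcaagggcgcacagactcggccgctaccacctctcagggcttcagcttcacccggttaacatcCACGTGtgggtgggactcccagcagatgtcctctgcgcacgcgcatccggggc
Rheb, chr5:24842362-24842511, minus strand: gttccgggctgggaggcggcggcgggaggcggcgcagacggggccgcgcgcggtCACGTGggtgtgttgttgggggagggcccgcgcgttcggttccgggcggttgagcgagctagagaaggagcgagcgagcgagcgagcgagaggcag
Lamtor4, chr5:138255332-138255481, plus strand: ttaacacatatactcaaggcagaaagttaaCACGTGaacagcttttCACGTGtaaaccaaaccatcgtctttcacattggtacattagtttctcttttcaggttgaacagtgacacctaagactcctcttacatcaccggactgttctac

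Counted from the start, the core begins at −112 in Rragc, −75 in Fnip1, −68 in Lamtor1 and −53 in Tbc1d7. It begins at −96 in Rheb and at −120 and −104 in Lamtor4. A window of 250 bases before to 50 after the start was found in RefSeq for 29 of the 34 members. CACGTG, which reads the same on both strands, was in the windows of 7 of these 29 (24.1%) and of 8.09% of 27025 genes with a window. The seventh gene is Rragb, whose probe was at background and whose stretch is not shown. Its sites begin at −127, −36 and −3. Of the 13 members with a window that rose, 4 held it, and of the other 16, 3 did. The longer palindrome TCACGTGA, which contains CACGTG, was in 0 of the 29 windows and in 1.12% of all genes. The full CLEAR palindrome, which extends it by a base on each side, was in 0 of the 29 and in 0.37%. Flcn, Fnip2 and Nprl2 were not among the 7 genes with CACGTG, and a window was found for 13 of the 15 members that rose. These matches describe the letters of a short window and no binding was measured.

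Among the arginine sensors, Slc38a9, a lysosomal membrane transporter that signals arginine to the Rags, had 1356 and 1320 with fluoxetine against 1266 and 1475 in control, with overlapping groups (−0.03 ± 0.11). Castor1, a cytosolic arginine sensor that inhibits GATOR2 when arginine is low, had 451 and 407 against 252 and 365. The fluoxetine arrays were higher, but the change of 0.50 ± 0.21 did not pass (adjusted p = 0.145). It was 0.23 without control 1 and 0.76 without control 2, where it was called, so 1 control array decides its size.

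The kinase Mtor and its mTORC1 partners showed changes near 0. Mtor had 344 and 342 with fluoxetine against 355 and 345 in control (−0.03 ± 0.07, adjusted p = 0.787). Rptor, which encodes the substrate-binding subunit raptor of mTORC1, was at −0.01 ± 0.08 (adjusted p = 0.906), and Mlst8, a subunit of both mTOR complexes, at −0.02 ± 0.08 (adjusted p = 0.889). The groups of Rptor and Mlst8 overlapped, and those of Mtor were apart by less than 1 scaled unit.

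The 2 members particular to mTORC2, the second mTOR complex, rose on their brightest probes. Mapkap1, which encodes mSIN1, had 1322 and 1232 with fluoxetine against 901 and 909 in control and rose by 0.50 ± 0.08 (adjusted p = 0.0246). A second Mapkap1 probe rose by 0.89 ± 0.11, and the remaining one, on another transcript, overlapped between groups (−0.07 ± 0.15). Rictor, the defining mTORC2 subunit, had 1491 and 1380 against 1009 and 926 and rose by 0.57 ± 0.09 (adjusted p = 0.0247). Prr5, a further mTORC2 subunit gene outside the 34, had 334 and 322 with fluoxetine against 365 and 369 in control, and its change of −0.16 ± 0.07 did not pass (adjusted p = 0.171), with its other kept probe of the opposite sign.

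The 3 kept probes of Rictor carry the same transcript accession yet disagreed. The second rose by 0.93 ± 0.09 (331 and 359 against 177 and 185), whereas the dimmest fell by 0.65 ± 0.08 (77.8 and 79.5 against 121 and 126, adjusted p = 0.0192 over all probes). With the 3 averaged, the change of Rictor was 0.28 and did not pass (adjusted p = 0.0523). With normexp background correction, an added alternative, it was not called.

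The inhibitory partners of mTOR moved in opposite directions. Akt1s1, which encodes PRAS40, a raptor-bound inhibitor released by Akt phosphorylation, had 4374 and 4050 with fluoxetine against 2638 and 2660 in control and rose by 0.67 ± 0.08 (adjusted p = 0.0165). Its second probe also rose, by 0.47 ± 0.09. Deptor, an inhibitor of both mTOR complexes, had 625 and 551 against 811 and 826 on its brightest probe and fell by 0.48 ± 0.10 (adjusted p = 0.0355). Its dimmer probe, on the same transcript, rose by 0.64 ± 0.14 (adjusted p = 0.0437 over all probes), both fluoxetine arrays lying above both control arrays, and with both averaged the change was 0.08.

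Downstream, Rps6kb1, which encodes S6 kinase 1, the mTORC1 substrate that promotes ribosome and protein synthesis, fell by 0.47 ± 0.08 (adjusted p = 0.0296). It had 5313 and 5788 with fluoxetine against 7596 and 7735 in control. The second probe, on another transcript, had 43.1 and 55.4 against 94.5 and 112 and fell by 1.07 ± 0.17 (adjusted p = 0.0274 over all probes). Rps6kb2, the gene of S6 kinase 2, had 157 and 177 against 140.0 and 136, and its change of 0.27 ± 0.09 did not pass (adjusted p = 0.105).

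**Figure D3:**
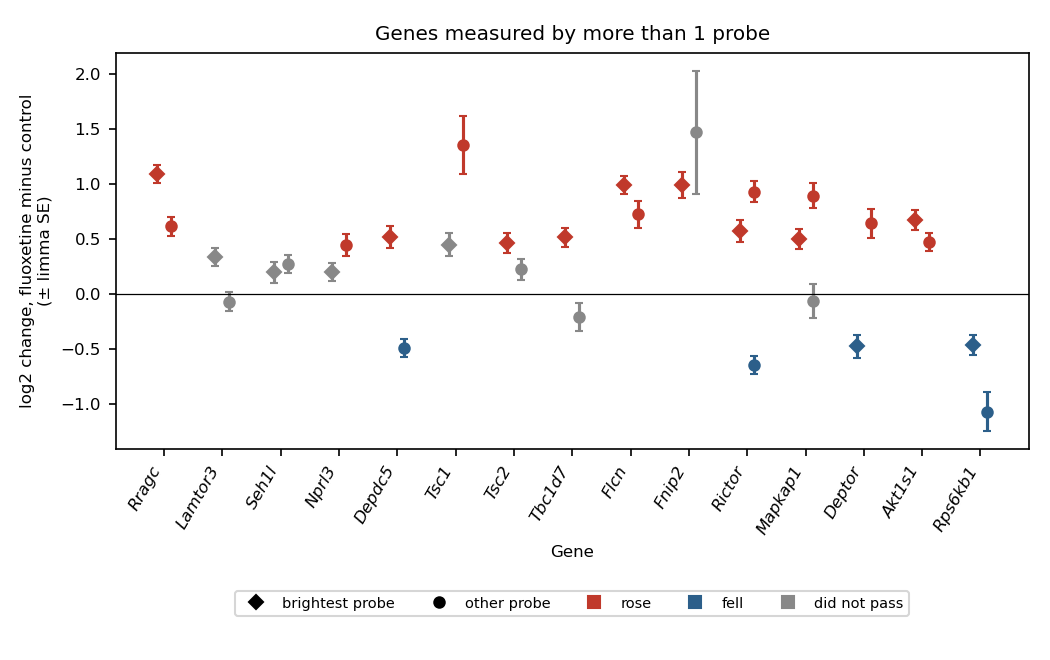
Log2 change of each kept probe, with its limma standard error, for the 15 genes measured by more than 1 kept probe. Diamonds are the brightest probe, which represents the gene, circles are the others, and colours mark rise, fall or neither in the test over all probes. Depdc5, Rictor and Deptor each hold a probe that rose and a probe that fell.

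Of the 49 kept probes of the members, 21 rose and 5 fell when every kept probe was tested by itself, beside 25.6% of all 28270 kept probes called in either direction. In 9 of the 15 genes with more than 1 kept probe all probes had the same sign, among them Rragc, Flcn, Fnip2, Tsc1, Tsc2, Akt1s1 and Rps6kb1. In the other 6 (Lamtor3, Depdc5, Tbc1d7, Rictor, Mapkap1 and Deptor) at least 1 probe had the opposite sign, and these 6 are among the called members. The other 17 members, Nprl2, Fnip1 and Lamtor1 among them, rest on 1 kept probe.

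Genes acting around the pathway were read from 5 lists, of which 71 genes were tested: 12 rose (16.9%), 3 fell (4.23%) and 56 did not pass. Of all tested genes 16.8% were higher and 10.1% lower, so the share that rose was that of all genes. In the list of KICSTOR, sensors and amino acid carriers, 5 of 18 tested genes rose and 0 fell (median 0.17). Slc38a7, a glutamine and asparagine transporter of the lysosome, rose by 1.25 ± 0.15 (adjusted p = 0.0162), with 936 and 814 with fluoxetine against 330 and 410.0 in control. Sesn2, the leucine-binding stress protein that inhibits GATOR2, rose by 0.85 ± 0.09 (3132 and 2793 against 1602 and 1671). The lysosomal amino acid transporter gene Slc36a1 (0.60 ± 0.10), with its other kept probe moving the opposite way, the KICSTOR gene Kptn (0.46 ± 0.09) and Sec13 (0.46 ± 0.08), the fifth subunit of GATOR2, also rose. The amino acid exchanger subunit gene Slc3a2 (0.24 ± 0.11) and the small GTPase gene Arf1 (−0.00 ± 0.10) did not pass.

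Of 23 tested genes for growth factor and energy inputs, 4 rose (17.4%) and 3 fell (13%), with a median of 0.08. These shares were near the 16.8% and 10.1% of all tested genes. Pik3ca, a catalytic subunit of phosphoinositide 3-kinase, fell by 1.25 ± 0.12 (adjusted p = 0.0129), at 415 and 348 with fluoxetine against 866 and 947 in control. Prkab2, a regulatory subunit of AMP-activated kinase, fell by 0.89 ± 0.11, and the Rheb relative Rhebl1 by 0.34 ± 0.07. The insulin receptor substrate gene Irs2 rose by 0.84 ± 0.08 (3356 and 3414 against 1835 and 1946), Pik3c3, the lipid kinase VPS34, by 0.46 ± 0.08, the AMP-activated kinase subunit gene Prkag2 by 0.43 ± 0.10, and Ddit4, which encodes the TSC activator REDD1, by 0.38 ± 0.08. Akt1 (0.14 ± 0.08), with its other kept probe of the opposite sign, and Pdcd6 (0.06 ± 0.10) did not pass.

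Of 18 tested mTORC1 substrates and effectors, 3 rose (16.7%) and 0 fell (median 0.18), beside 16.8% and 10.1% of all tested genes. Lpin1, a phosphatidate phosphatase that mTORC1 phosphorylates, rose by 1.25 ± 0.08 (adjusted p = 0.00985), with 277 and 301 with fluoxetine against 120.2 and 123 in control. Eif4ebp1, the gene of the translation repressor 4E-BP1, rose by 1.05 ± 0.11 (30653 and 29265 against 13434 and 15614), and its relative Eif4ebp3 by 0.43 ± 0.09. Rps6, the S6 kinase target, was at −0.02 ± 0.09 and Eif4b at 0.11 ± 0.09. Of 9 tested genes for assembly of the mTOR complexes 0 were called in limma (2 at an unadjusted p under 0.05), with Hsp90aa1 at −0.23 ± 0.07 and Ruvbl1 at 0.05 ± 0.08.

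None of the 3 tested MiT/TFE transcription factor genes was called in limma, and 0 had an unadjusted p under 0.05. Tfe3 had 10253 and 9812 with fluoxetine against 8898 and 8971 in control (0.17 ± 0.07, adjusted p = 0.169), and Mitf was at −0.02 ± 0.08. Tfeb had 102 and 85.1 against 280 and 88.1, a change of −0.76 ± 0.60 that rests on 1 bright control array. Tfeb (2 kept probes) and Mitf (3 kept probes) each had 1 kept probe of the opposite sign. Tfec was too dim to test. Gene lists of this kind were chosen with earlier results of these arrays known, and their counts are descriptions beside the 16.8% and 10.1% of all genes called higher and lower.

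**Figure D4:**
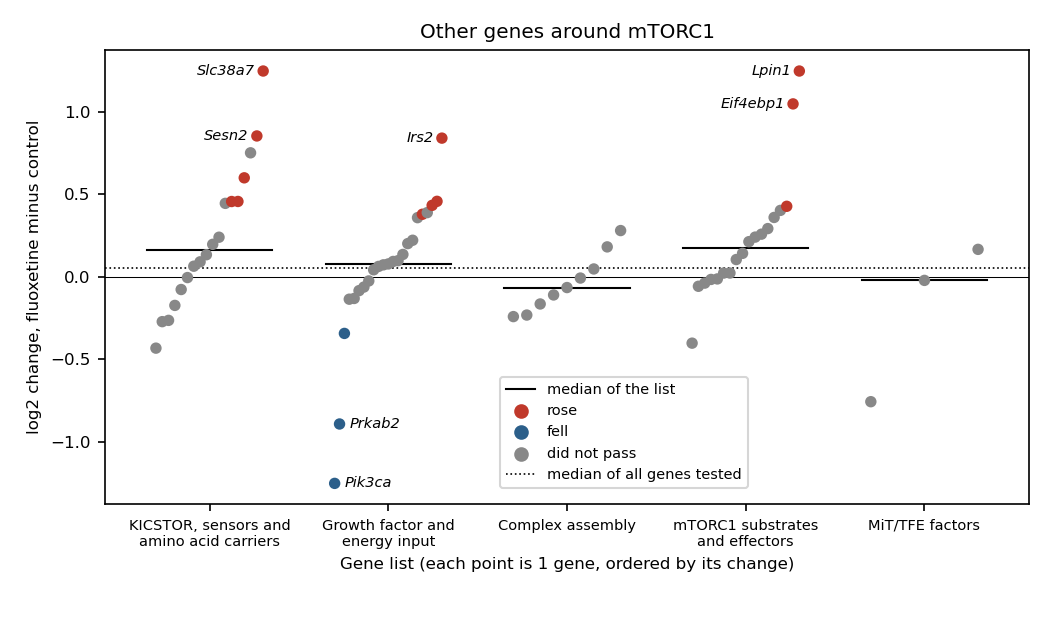
Log2 change, fluoxetine minus control, of the 71 tested genes in 5 lists around mTORC1, each point 1 gene (red rose, blue fell, grey did not pass). Solid bars are list medians and the dotted line is the median of all genes tested, and Slc38a7, Lpin1 and Eif4ebp1 lie above 1 while Pik3ca lies below −1.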

How the data were processed

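Per the file headers, the deposited intensity of each spot is linear, was extracted with Agilent's Feature Extraction 12.1.0.3, and is not scaled between arrays. The marks for flagged spots and for spots well above background, another kind of deposited value, were set by the same software, per the file headers. Labelled RNA was made from 10 ng per sample, per the labels. No later step by the authors is stated in the labels or headers. The number of arrays, 2 per group, limits the precision.

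In limma 3.58.1 (R 4.3.3), control spots and outlier spots were left out (47 probes lost), spots of 1 probe were averaged, and log2 intensity minus the 75th percentile of each array's probes was fitted (lmFit and eBayes, group only, all 4 arrays). Of 56605 probes, 34645 matched 1 symbol in the RefSeq gene table (GRCm38.p6) by accession and 21913 of the probes left matched none. A probe was kept when well above background on both arrays of a group (28270 probes), and the brightest kept probe represents a gene. A probe dim in 1 whole group has a bound in place of a fold: the bright group's mean over the dim group's, where each dim array enters with its own value or with the lowest bright signal on that array, whichever is more. The fit was also run on simulated data with few changed genes and independent noise. That setting differs from these arrays, so it cannot show how stable the calls are here.

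All 34 members are accounted for. From each other list the text names up to 4 called genes by size of change, up to 2 uncalled genes by signal, every MiT/TFE factor, and further called genes where a list had 5 or fewer in a direction, these last chosen after their values were seen, as were Prr5 and the markers named. Members and lists were chosen with earlier results of these data known.

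The replicate numbers in the labels are not said to mark a shared culture or day, and same-numbered arrays deviated from their group means with a correlation of −0.117 across genes, so they were not taken as pairs. The planned normexp fit on mean spot signals was not run, since the files used here hold median signals, which served instead as an added alternative.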

Additional observations from a re-analysis of the deposited data

How the results depend on the processing

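With dim probes kept, limma called 0 of 23771 genes (5272 at an unadjusted p under 0.05) and 0 members or other pathway genes in either direction. With the replicate block 1859 genes were called in place of 3647, with 7 members higher and 0 lower, 2 activators higher and 0 lower, 4 restrainers higher, and 6 other pathway genes higher. With the replicate numbers crossed, an alternative added after seeing the data, 0 members and 0 activators were lower and 7 other pathway genes were higher. At an adjusted p under 0.1, 5585 genes were called, with 20 other pathway genes higher and 7 lower. A trended, robust variance gave 20 and 6 of these, and quantile normalization gave 5 lower. Averaging the probes of a gene left 5 restrainers higher in place of 8. Leaving out each array gave 0 to 2666 genes, 0 to 10 members higher and 0 to 1 lower, 0 to 2 activators higher and 0 to 1 lower, 0 to 6 restrainers higher, and 0 to 5 other pathway genes higher and 0 to 3 lower. The cause of these differences was not tested. Of 416 member values under these settings, 296 kept direction and side of the threshold, 99 lost the call, 5 gained one and 16 changed sign. Only the values of called members, 234 of the 416, could lose a call, so the lost calls are to be read against those 234. Sign changes were Deptor with averaged probes (0.0793), Lamtor5 with quantile normalization (−0.00244), the median of bright probes (−0.0055) and normexp on median signals (−0.14), and Mios (0.026), Mtor (0.00514) and Rptor (0.013) with normexp. With each array left out, Lamtor5 ran from −0.0675 to 0.139, Wdr59 from −0.23 to 0.0198, Mios from −0.0983 to 0.061, Slc38a9 from −0.141 to 0.0793, Mlst8 from −0.0448 to 0.0134 and Rptor from −0.0575 to 0.0286.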
